A study of Sus scrofa with 96 samples.

Results

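Genes of fatty acid oxidation and ketone body metabolism were followed across muscle, kidney, liver and jejunum of pigs (Sus scrofa). The set holds 37 genes chosen by symbol, and 34 of them were found among the 25880 gene identifiers of the count tables. SLC22A5 (the plasma membrane carnitine transporter), ECI1 (an enoyl-CoA isomerase) and ACOT1 (an acyl-CoA thioesterase) had no identifier under that symbol and are not analysed here. In the study, 24 pigs ate a semi-purified diet that held 8% D-xylose, a pentose sugar, or that diet without xylose. RNA of longissimus dorsi muscle, kidney cortex, liver and jejunum mucosa was counted from transcript 3' ends (QuantSeq) in 96 libraries. The groups were each of the 4 tissues on xylose and the same tissue on the control diet, with 12 libraries each. The labels used here give no breed, sex or age and do not tie a library to an animal, so p-values measure the spread between libraries. Only whole tissue was sampled, and in bulk tissue fewer cells of a type and less RNA per cell cannot be told apart.

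Of the 96 files, 90 are recorded under another sample than the one whose title their name holds, and the title was followed. Totals ran from 13418 to 6942566 counts per library with a median of 3393514. Leaving out libraries under 1000000 counts kept 12 xylose and 12 control libraries of muscle, 12 and 12 of kidney, 11 and 12 of liver, and 10 and 9 of jejunum. By title each tissue carried its own markers, counted as the sum over each list. Hepatocyte genes (10) took 6.96% to 27.5% of liver counts and at most 0.557% of any other library. Enterocyte genes (9) took 0.67% to 1.91% of jejunum and at most 0.115% elsewhere. Kidney tubule genes (9) took 0.403% to 1.89% of kidney and at most 0.0176% elsewhere. Skeletal muscle genes (6) took 12.3% to 30.8% of muscle and at most 0.947% elsewhere. Single markers in another tissue stood at list medians of 0.29% to 1.49% of their mean in their own. CPS1 alone went the other way, at 188% of its liver mean in jejunum. APOA4 stood at 54.4% of its jejunum mean in liver, and MEP1B at 19.1% in kidney. SERPINA1 and AQP2 had few counts even in their own tissue. Muscle xylose replicate 7 had 0.557% hepatocyte counts, against a muscle median of 0.0945%. It also had the lowest skeletal muscle share of muscle, 12.3% against a median of 26.3%, and why it differed was not tested. In this library 13 of 34 member values lay outside the range of the other muscle libraries. Those values are the muscle extremes of these members. Liver control replicate 6 and xylose replicate 5 had the lowest hepatocyte shares of liver, 6.96% and 7.04% against a median of 22.4%.

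Fatty acids are activated to acyl-CoA by acyl-CoA synthetases, carried into mitochondria as carnitine esters, and shortened there by repeated rounds of dehydrogenation, hydration, dehydrogenation and thiolysis. Electrons of the first step reach the respiratory chain through the electron transfer flavoprotein, and peroxisomes shorten very long and branched chains by a parallel route. The mammalian liver turns surplus acetyl-CoA into ketone bodies for use by muscle, kidney and other tissues, and the pig is known for making few of them.

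The comparison between tissues shows where each step of the pathway is expressed. Liver libraries were high in BDH1, which interconverts acetoacetate and 3-hydroxybutyrate, and low in OXCT1, which commits acetoacetate to oxidation. Muscle was high in CRAT and CPT1B, jejunum in ACSL5 and ACSL3, and all 4 peroxisomal members were lower in muscle than in the other tissues. Levels are CPM (counts scaled to a common library size) on totals scaled by TMM, a method that centres the bulk of genes between libraries, and genes are called at an edgeR adjusted p under 0.05. Of 34 members, 6 had their highest mean in muscle, 2 in kidney, 22 in liver and 4 in jejunum. On plain library totals these counts were 2 in muscle, 18 in kidney, 9 in liver and 5 in jejunum. Both scalings put the highest mean of CPT1B and CRAT in muscle, of ACADL and ACADM in kidney, and of ACSL3, ACSL5 and ACSL6 in jejunum. Both put that of 9 members in liver, namely ACAA2, ACAT1, ACOX2, ACSL1, BDH1, CPT2, DECR1, ETFA and HSD17B4.

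Of the 31 members that passed the filter on low counts, 6 higher and 17 lower were called for muscle against kidney, where 33.5% and 42.3% of all 11511 genes tested were called higher and lower. For muscle against liver 5 higher and 21 lower were called (all genes 37.4% and 39.4%), and for muscle against jejunum 17 higher and 9 lower (all genes 38.4% and 43.5%). Kidney against liver gave 6 higher and 19 lower (all genes 37.3% and 29.4%), kidney against jejunum 24 higher and 3 lower (all genes 37.3% and 37.6%), and liver against jejunum 23 higher and 6 lower (all genes 35.8% and 40.9%). The share of members called higher thus exceeded that of all genes in kidney against jejunum, with a median member log2 difference of 0.77 and a median over all genes of -0.00. It did so in liver against jejunum too, with medians of 1.56 for members and -0.11 for all genes. Under TMM the share called higher was also above that of all genes for muscle against jejunum, with medians of 0.68 and -0.11. The share called lower exceeded that of all genes for muscle against liver, with medians of -1.04 for members and -0.03 for all genes. The same held for kidney against liver (-0.62 and 0.09) and for muscle against kidney (-0.38 and -0.13).

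Several of these splits depended on scaling. With library totals in place of TMM the median of all genes moved by -1.43 on the log2 scale for muscle against kidney, -0.54 for muscle against liver and -1.14 for muscle against jejunum. It moved by 0.88 for kidney against liver, 0.29 for kidney against jejunum and -0.59 for liver against jejunum. Members called on totals were 3 higher and 28 lower, 4 higher and 25 lower, 5 higher and 20 lower, 15 higher and 10 lower, 25 higher and 3 lower and 19 higher and 8 lower in that order of contrasts. Called in 1 direction under TMM, DESeq2 size factors and totals alike were 3 higher and 17 lower for muscle against kidney, 4 higher and 21 lower for muscle against liver, 5 higher and 9 lower for muscle against jejunum, 6 higher and 10 lower for kidney against liver, 24 higher and 3 lower for kidney against jejunum and 19 higher and 6 lower for liver against jejunum. Muscle RNA was prepared with another kit, so kit and muscle cannot be told apart. Ratios of 2 genes within a library do not change with scaling and are given where they carry the pattern.

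**Figure D1:**
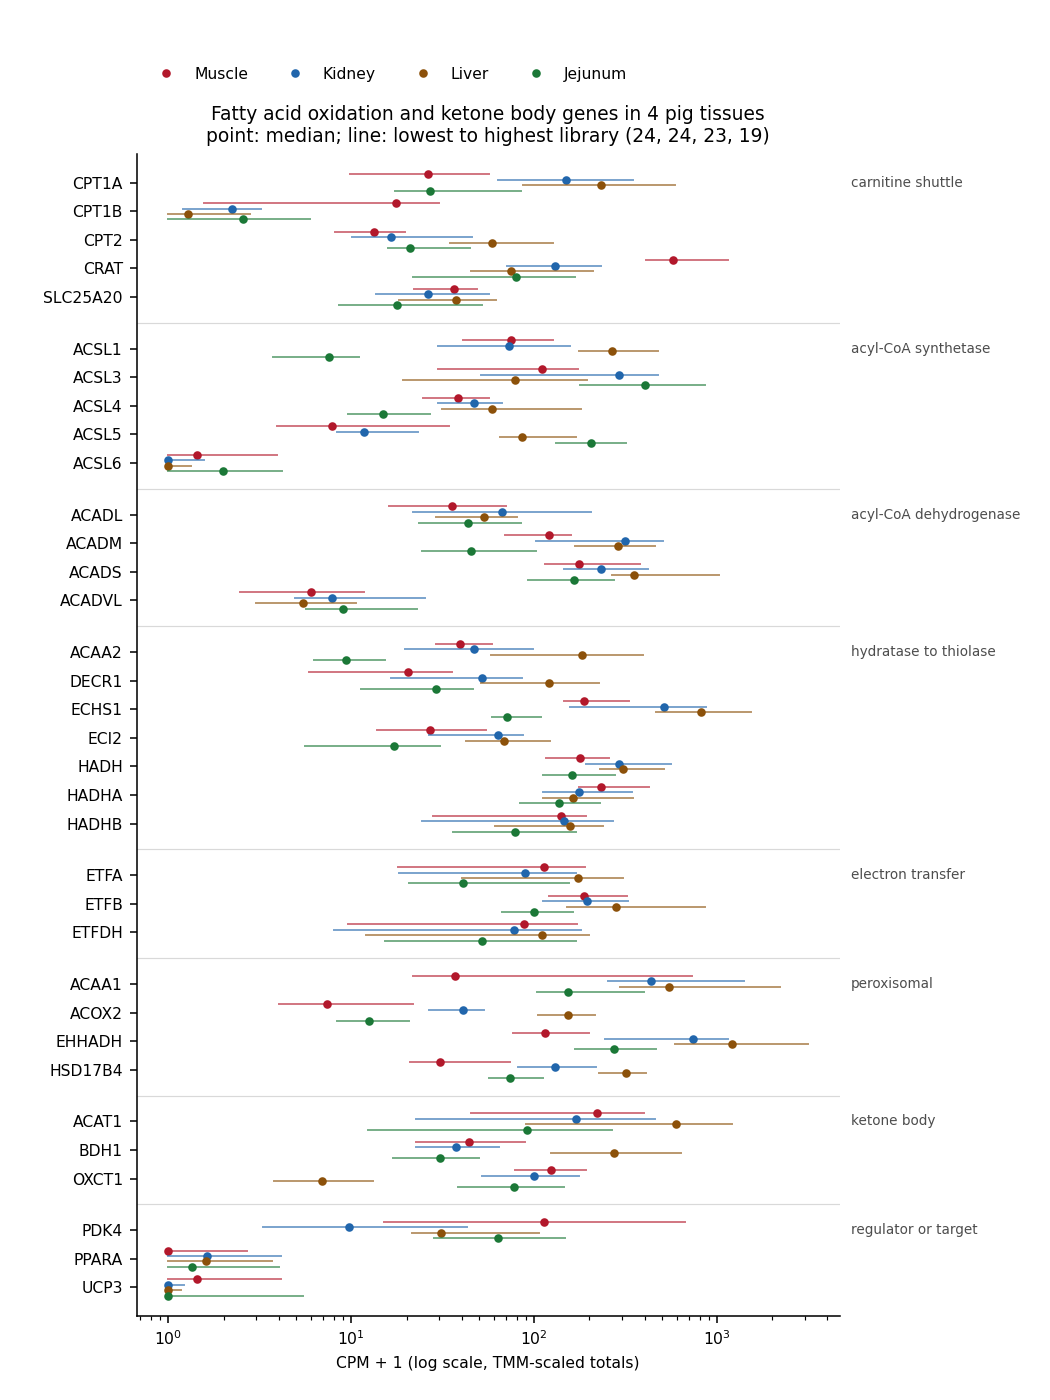
Levels of the 34 counted members by role in muscle, kidney, liver and jejunum; the x axis is CPM + 1 on a log scale, points are medians and lines run from the lowest to the highest library (24, 24, 23 and 19 libraries). CRAT and CPT1B lie to the right in muscle, ACSL5 in jejunum and BDH1 in liver, and OXCT1 lies to the left in liver at a median of 5.93 CPM.

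**Figure D2:**
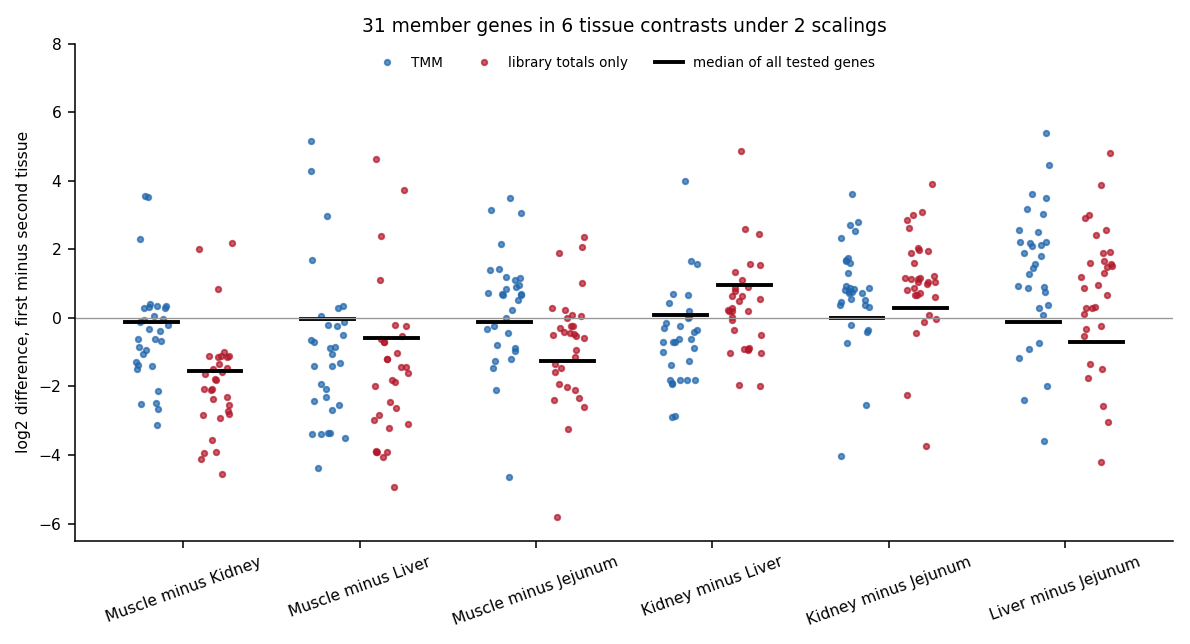
Log2 difference (y axis) of the 31 tested members in the 6 tissue contrasts, first minus second tissue; blue points use TMM, red points library totals only, and black bars are the median of all tested genes. From TMM to library totals the bar moves by -1.43 for muscle against kidney and by 0.29 for kidney against jejunum.

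The carnitine shuttle moves long acyl groups through the mitochondrial membranes. CPT1A (ENSSSCG00000012880), the outer membrane carnitine palmitoyltransferase of liver and many tissues, had lowest, median and highest values of 8.88, 25.1 and 55.5 CPM in muscle, 62.2, 148 and 343 CPM in kidney, 86.1, 231 and 583 CPM in liver, and 16.3, 26.0 and 83.5 CPM in jejunum. Every kidney and liver library lay above every muscle library. The log2 difference was -2.66 ± 0.19 (edgeR adjusted p = 1.99e-23) for muscle against kidney and 3.04 ± 0.21 (adjusted p = 6.14e-24) for liver against jejunum. CPT1B (ENSSSCG00000022364), the muscle isoform, had 0.561, 16.4 and 29.1 CPM in muscle, 0.204, 1.22 and 2.18 CPM in kidney, 0, 0.282 and 1.79 CPM in liver, and 0, 1.57 and 4.94 CPM in jejunum. Muscle exceeded jejunum by 3.16 ± 0.31 (adjusted p = 2.68e-16), and the lowest muscle value was that of xylose replicate 7, the next being 4.78 CPM. The ratio of CPT1A to CPT1B in a library had medians of 1.64 in muscle, 147 in kidney, 483 in liver and 16.1 in jejunum, over the 14 liver and 16 jejunum libraries with a CPT1B count. Its range in muscle was 0.426 to 86, so CPT1B had more counts than CPT1A in some muscle libraries and in none of kidney or liver. The ratio of 86 was that of xylose replicate 7.

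CPT2, which rebuilds acyl-CoA on the inner membrane, had 7.08, 12.2 and 18.7 CPM in muscle, 9.02, 15.5 and 44.7 CPM in kidney, 33.6, 57.5 and 125 CPM in liver, and 14.8, 20.03 and 43.3 CPM in jejunum. SLC25A20, the carnitine-acylcarnitine carrier, had 21.1, 35.5 and 47.6 CPM in muscle, 12.7, 25.1 and 55.6 CPM in kidney, 17.1, 36.2 and 60.4 CPM in liver, and 7.59, 16.7 and 51.0 CPM in jejunum. Ranges of SLC25A20 overlapped between all tissues, while each liver library exceeded each muscle library in CPT2. CRAT, the carnitine acetyltransferase that buffers acetyl-CoA, had 405, 570.2 and 1148 CPM in muscle, 69.4, 129 and 229.7 CPM in kidney, 44.3, 73.3 and 209 CPM in liver, and 20.8, 78.0 and 165 CPM in jejunum. No muscle library overlapped a library of another tissue in CRAT, and muscle exceeded kidney by 2.31 ± 0.15 (adjusted p = 6.94e-26).

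Acyl-CoA synthetases differed by isoform. ACSL1, the main long-chain synthetase of liver, muscle and fat, had 39.9, 73.9 and 125 CPM in muscle, 28.6, 71.8 and 156 CPM in kidney, 174, 265 and 473 CPM in liver, and 2.72, 6.52 and 10.03 CPM in jejunum. ACSL5, an isoform abundant in the intestine, had 2.92, 6.81 and 33.1 CPM in muscle, 7.36, 10.8 and 22.2 CPM in kidney, 64.3, 84.4 and 167 CPM in liver, and 131, 203 and 314 CPM in jejunum. Liver lay above every other tissue in ACSL1 and jejunum below every other, whereas in ACSL5 jejunum overlapped liver only. Liver against jejunum, ACSL1 differed by 5.41 ± 0.18 (adjusted p = 3.67e-47) and ACSL5 by -1.16 ± 0.15 (adjusted p = 1.09e-11), in opposite directions. The ratio of ACSL1 to ACSL5 had medians of 10.8 in muscle, 6.79 in kidney, 3.19 in liver and 0.0324 in jejunum, and its highest jejunum value, 0.0535, lay below its lowest elsewhere, 1.203 in muscle. That muscle value was that of xylose replicate 7, which also had the highest muscle ACSL5, the next being 11.0 CPM. ACSL3, an isoform of the endoplasmic reticulum and lipid droplets, had 28.6, 109.6 and 173 CPM in muscle, 50.0, 289 and 475 CPM in kidney, 18.2, 77.3 and 192 CPM in liver, and 176, 402 and 857 CPM in jejunum. Kidney was below jejunum by -0.72 ± 0.20 (adjusted p = 0.000718) with overlapping ranges, and in lane 7 alone the difference was -0.57 (adjusted p = 0.1). ACSL4, which prefers arachidonate, had 23.5, 37.2 and 55.4 CPM in muscle, 28.8, 45.8 and 65.8 CPM in kidney, 30.4, 57.4 and 178 CPM in liver, and 8.53, 13.8 and 25.7 CPM in jejunum, with no overlap between kidney and jejunum. ACSL6, known from brain, reached at most 3.17 CPM, and 22 of 23 liver libraries had no count of it.

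Acyl-CoA dehydrogenases open each round, with a member for each range of chain length. For them TMM called 0 higher and 3 lower of 4 tested for muscle against liver (library totals 0 higher and 4 lower), and 3 higher and 0 lower for kidney against jejunum (library totals 3 higher and 0 lower). Muscle against jejunum gave 1 higher and 1 lower under TMM and 0 higher and 3 lower on library totals, and kidney against liver 2 higher and 1 lower under TMM and 3 higher and 0 lower on library totals. ACADM, for medium chains, had 68.1, 119 and 157 CPM in muscle, 101.3, 311 and 502 CPM in kidney, 166, 284 and 453 CPM in liver, and 23.3, 43.8 and 100.8 CPM in jejunum. Kidney exceeded jejunum by 2.71 ± 0.15 (adjusted p = 3.21e-30), with no overlap. ACADS, for short chains, had 113, 175 and 375 CPM in muscle, 144, 229 and 418 CPM in kidney, 266, 349 and 1019 CPM in liver, and 91.1, 163 and 272 CPM in jejunum. ACADL, for long chains, had 15.0, 34.6 and 69.2 CPM in muscle, 20.8, 65.5 and 203 CPM in kidney, 27.8, 52.1 and 79.7 CPM in liver, and 22.3, 42.1 and 83.9 CPM in jejunum, and its ranges overlapped between all tissues. The ratio of ACADL to ACADM had medians of 0.297 in muscle, 0.213 in kidney, 0.186 in liver and 0.876 in jejunum. ACADVL, for very long chains, was counted at low levels, with 1.45, 5.05 and 10.8 CPM in muscle, 3.89, 6.79 and 24.1 CPM in kidney, 1.99, 4.45 and 9.56 CPM in liver, and 4.61, 7.94 and 21.9 CPM in jejunum.

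Hydratases, dehydrogenases and thiolases complete the round. For these genes TMM called 1 higher and 5 lower of 7 tested for muscle against liver (library totals 0 higher and 6 lower), and 7 higher and 0 lower for kidney against jejunum (library totals 7 higher and 0 lower). Muscle against jejunum gave 5 higher and 1 lower under TMM and 2 higher and 5 lower on library totals, and kidney against liver 0 higher and 4 lower under TMM and 4 higher and 2 lower on library totals. HADHA, the alpha subunit of the mitochondrial trifunctional protein, had 173, 231 and 421 CPM in muscle, 109.8, 175 and 339 CPM in kidney, 109.8, 162 and 346 CPM in liver, and 82.9, 136 and 228 CPM in jejunum. HADHB, its beta subunit, had 26.9, 139 and 191 CPM in muscle, 23.4, 143 and 268 CPM in kidney, 59.9, 156 and 235 CPM in liver, and 34.9, 77.2 and 167 CPM in jejunum. Both subunits overlapped between all tissues. HADH, the hydroxyacyl-CoA dehydrogenase of shorter chains, had 115, 177 and 254 CPM in muscle, 190.1, 289 and 557 CPM in kidney, 226, 304 and 511 CPM in liver, and 111, 159.8 and 276 CPM in jejunum. ECHS1, the short-chain enoyl-CoA hydratase, had 144, 186 and 328 CPM in muscle, 155, 509.5 and 862 CPM in kidney, 459, 811 and 1523 CPM in liver, and 57.8, 69.5 and 107 CPM in jejunum. ACAA2, the mitochondrial 3-ketoacyl-CoA thiolase, had 28.1, 38.1 and 57.9 CPM in muscle, 18.6, 45.96 and 97.5 CPM in kidney, 56.6, 181 and 392 CPM in liver, and 5.25, 8.39 and 14.3 CPM in jejunum. Liver exceeded jejunum by 3.51 ± 0.13 (adjusted p = 1.43e-43) for ECHS1 and by 4.48 ± 0.15 (adjusted p = 3.4e-46) for ACAA2, with no overlap for either. DECR1, which reduces dienoyl intermediates of unsaturated chains, had medians of 19.3 CPM in muscle, 50.6 CPM in kidney, 119.8 CPM in liver and 28.1 CPM in jejunum. ECI2, an enoyl-CoA isomerase, had medians of 25.7, 62.6, 66.8 and 16.1 CPM in those tissues.

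Calls of the 3 electron transfer genes depended on scaling. TMM called 0 higher and 0 lower for muscle against kidney, 0 higher and 2 lower for muscle against liver, 2 higher and 0 lower for kidney against jejunum and 3 higher and 0 lower for liver against jejunum, while library totals gave 0 higher and 3 lower, 0 higher and 3 lower, 3 higher and 0 lower and 2 higher and 0 lower in that order. ETFDH, which passes the electrons to ubiquinone, had 8.62, 87.2 and 171 CPM in muscle, 7.07, 76.5 and 179.8 CPM in kidney, 11.0, 109 and 199 CPM in liver, and 14.3, 50.8 and 167 CPM in jejunum. Of its 6 contrasts TMM called liver against jejunum alone (log2 difference 0.76), which on library totals was 0.11 and not called. On library totals ETFDH was instead called lower in muscle than in kidney, liver and jejunum. It was also called higher there in kidney than in liver and jejunum. ETFA and ETFB, the subunits of the flavoprotein, had medians of 113 and 186 CPM in muscle, 87.6 and 193 CPM in kidney, 173 and 279.8 CPM in liver, and 39.8 and 98.6 CPM in jejunum.

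All 4 peroxisomal members were called lower in muscle than in kidney, liver and jejunum, under TMM and on library totals. EHHADH, the L-bifunctional enzyme, had 75.5, 113 and 197 CPM in muscle, 242, 732 and 1142 CPM in kidney, 586, 1201 and 3130.4 CPM in liver, and 165, 272 and 462 CPM in jejunum. HSD17B4, the D-bifunctional enzyme, had 19.99, 29.3 and 73.0 CPM in muscle, 80.1, 128 and 217 CPM in kidney, 223, 315 and 409 CPM in liver, and 55.2, 72.3 and 110.3 CPM in jejunum. Muscle was below kidney by -2.50 ± 0.15 (adjusted p = 2.28e-28) for EHHADH and by -2.12 ± 0.10 (adjusted p = 1e-35) for HSD17B4, with no overlap for either. ACOX2, the branched-chain acyl-CoA oxidase of bile acid synthesis, had 3.04, 6.31 and 20.8 CPM in muscle, 25.6, 39.8 and 52.2 CPM in kidney, 103.1, 151 and 212 CPM in liver, and 7.33, 11.4 and 19.6 CPM in jejunum. Kidney was below liver by -1.90 ± 0.12 (adjusted p = 1.66e-27) for ACOX2, again with no overlap. ACAA1, the peroxisomal thiolase, had 20.6, 35.6 and 730.3 CPM in muscle, 250.3, 433 and 1406 CPM in kidney, 292, 543 and 2186 CPM in liver, and 102.99, 152 and 396 CPM in jejunum. The highest muscle value of all 4 genes was that of xylose replicate 7. The next was 65.6 CPM for ACAA1, 195 CPM for EHHADH, 38.2 CPM for HSD17B4 and 13.2 CPM for ACOX2.

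Among the ketone body genes, ACAT1 and BDH1 had their highest mean in liver and OXCT1 its lowest. ACAT1, the mitochondrial acetoacetyl-CoA thiolase that serves both the making and the use of ketone bodies, had 43.8, 220.3 and 394 CPM in muscle, 21.4, 168 and 454 CPM in kidney, 89.1, 596 and 1199 CPM in liver, and 11.3, 90.5 and 265 CPM in jejunum. BDH1 (ENSSSCG00000024109), which interconverts acetoacetate and 3-hydroxybutyrate, had 21.5, 43.2 and 87.4 CPM in muscle, 21.4, 36.4 and 63.4 CPM in kidney, 122, 270.2 and 635 CPM in liver, and 15.9, 29.4 and 48.8 CPM in jejunum. OXCT1 (ENSSSCG00000016863), the transferase that commits acetoacetate to oxidation, had 76.9, 123 and 189.8 CPM in muscle, 51.0, 98.8 and 174 CPM in kidney, 2.797, 5.93 and 12.1 CPM in liver, and 37.4, 76.7 and 144 CPM in jejunum. Every liver library was above all others in BDH1 and below all others in OXCT1. Kidney was below liver by -2.87 ± 0.15 (adjusted p = 1.11e-33) for BDH1 and by -1.80 ± 0.25 (adjusted p = 8.44e-10) for ACAT1, and muscle was above liver by 4.28 ± 0.15 (adjusted p = 9.5e-46) for OXCT1. The ratio of OXCT1 to BDH1 in a library had medians of 2.51 in muscle, 2.70 in kidney, 0.0243 in liver and 2.27 in jejunum. Its highest liver value was 0.0449 and its lowest elsewhere 0.881, in muscle. Mean OXCT1 in liver was 5.18% of its muscle mean, and skeletal muscle markers in liver stood at 0.363% to 0.483% of theirs. No other species was measured, so these levels place the pig against no other animal.

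PDK4 (ENSSSCG00000015334), the kinase that closes pyruvate dehydrogenase when fat is burned, had 14.1, 112 and 662 CPM in muscle, 2.30, 8.75 and 41.6 CPM in kidney, 20.5, 29.7 and 106 CPM in liver, and 27.4, 62.5 and 147 CPM in jejunum. Muscle exceeded kidney by 3.52 ± 0.30 (adjusted p = 1.22e-19) and liver by 1.70 ± 0.28 (adjusted p = 6.05e-08), with overlapping ranges. Against jejunum the difference was 0.97 ± 0.29 (adjusted p = 0.00157) under TMM and -0.23 (adjusted p = 0.431) on library totals. PPARA, the fatty acid receptor that drives many of these genes in rodents, reached at most 3.11 CPM, and UCP3, a mitochondrial carrier known from muscle, at most 4.47 CPM. Like ACSL6, both were too low to be tested between tissues.

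**Figure D3:**
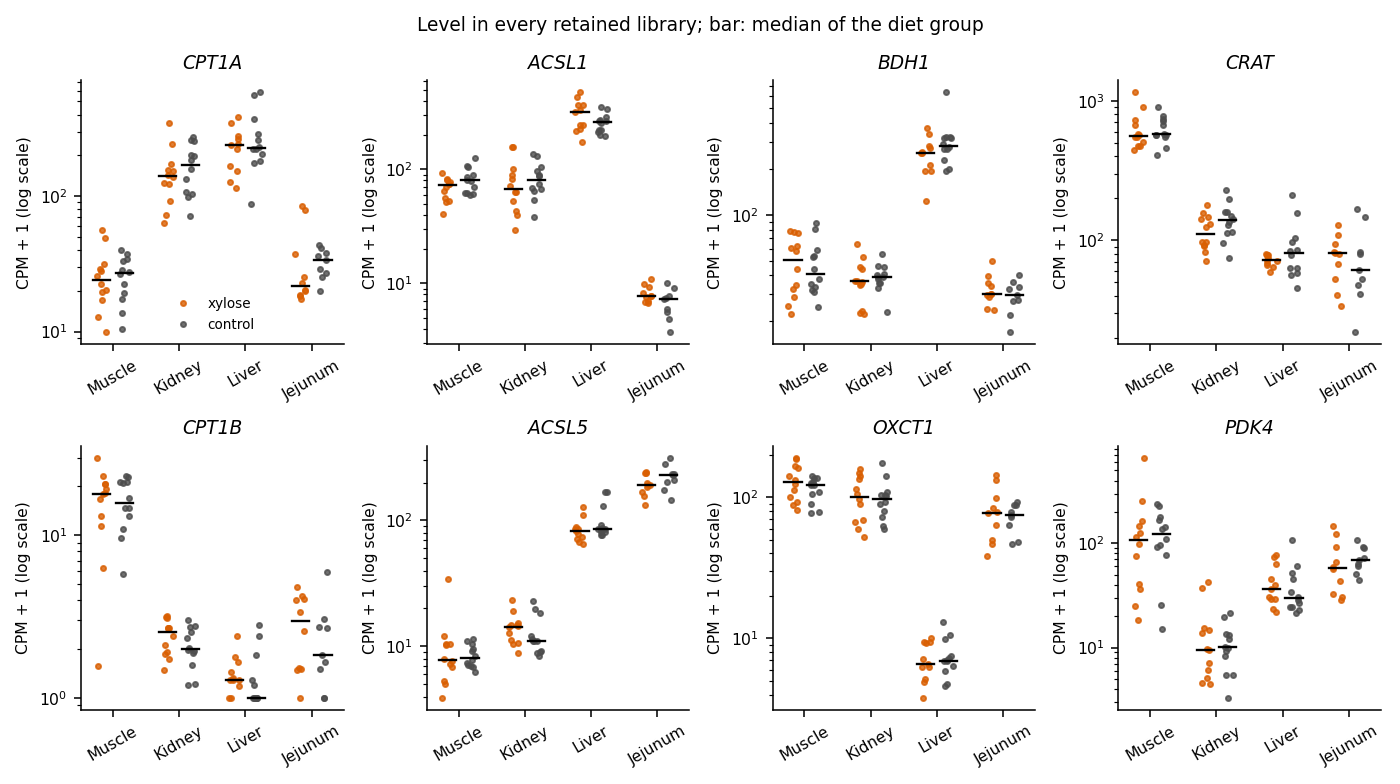
CPM + 1 (y axis, log scale) of 8 members in every retained library by tissue, xylose in orange left of control in grey; bars are medians of the diet group. BDH1 is high and OXCT1 low in liver, CRAT is high in muscle, ACSL1 is low in jejunum, and the diet groups overlap in each tissue.

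Genes of the same routes outside the set were counted from lists of those routes. Of 21 other genes of mitochondrial oxidation, TMM called 2 higher and 17 lower for muscle against liver (library totals 2 higher and 17 lower) and 13 higher and 1 lower for kidney against jejunum (library totals 18 higher and 1 lower). ACSM3, a medium-chain acyl-CoA synthetase, averaged 0.995 CPM in muscle and 24.6 CPM in liver (-4.62 ± 0.31, adjusted p = 6.18e-26). Of 13 other peroxisomal genes 0 higher and 12 lower were called for muscle against liver (library totals 0 higher and 13 lower) and 5 higher and 4 lower for kidney against jejunum (library totals 7 higher and 3 lower). CAT, catalase, averaged 233 CPM in muscle and 4699.6 CPM in liver (-4.33 ± 0.17, adjusted p = 1.54e-41). PHYH, which starts the oxidation of phytanate, averaged 903 CPM in kidney and 113 CPM in jejunum (2.9998 ± 0.23, adjusted p = 1.7e-21). Both tested genes of carnitine synthesis were lower in muscle than in liver and higher in kidney than in jejunum, and BBOX1, the last enzyme of that route, averaged 2.43 CPM in muscle and 61.1 CPM in liver (-4.68 ± 0.20, adjusted p = 2.08e-39).

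Of 4 other ketone body genes 0 higher and 4 lower were called for muscle against liver (library totals 0 higher and 4 lower) and 3 higher and 0 lower for kidney against jejunum (library totals 3 higher and 0 lower). Of 8 uptake genes 4 higher and 4 lower were called for muscle against liver (library totals 3 higher and 4 lower) and 4 higher and 2 lower for kidney against jejunum (library totals 5 higher and 2 lower). LPL, lipoprotein lipase, averaged 139 CPM in muscle and 0.843 CPM in liver (7.42 ± 0.23, adjusted p = 4.69e-50). FABP2, the intestinal fatty acid binding protein and here also an enterocyte marker, averaged 8.48 CPM in kidney and 3055 CPM in jejunum (-8.47 ± 0.23, adjusted p = 5.89e-54). Regulators and other PPAR targets (21 genes) gave 10 higher and 10 lower for muscle against liver (library totals 6 higher and 12 lower) and 9 higher and 9 lower for kidney against jejunum (library totals 11 higher and 8 lower). CREB3L3, a hepatic and intestinal factor of the fasting response, averaged 9.19 CPM in muscle and 133 CPM in liver (-3.87 ± 0.19, adjusted p = 1.19e-35).

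The diet comparison asked whether dietary xylose altered these genes, and no member passed the test in any tissue. At an edgeR adjusted p under 0.05, 0 of 31 tested members were called in muscle, 0 of 30 in kidney, 0 of 30 in liver and 0 of 30 in jejunum, and the share of all genes called was 0% in each tissue. DESeq2 called 0 members as well. An unadjusted p under 0.05 was reached by 0 members in muscle, 1 in kidney, 3 in liver and 0 in jejunum. Over all genes it was reached by 620 of 8436 in muscle, 720 of 10128 in kidney, 618 of 9194 in liver and 404 of 8867 in jejunum. The median member log2 difference, xylose minus control, was 0.09 in muscle, -0.06 in kidney, -0.03 in liver and 0.02 in jejunum, beside 0.03, 0.03, 0.01 and 0.00 over all genes. The 95% interval stayed within a 2-fold change either way for 27 of the members in muscle, 26 in kidney, 28 in liver and 29 in jejunum.

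The assignment of files to samples mattered here. With each file under the sample of the GEO record, 1 member was called in muscle, where 3.33% of all genes were called, and 3 in liver, where 9.8% were. None was called in kidney or jejunum, where 0.0197% and 0.0109% of all genes were. These were ACADS in muscle (0.57 ± 0.16, adjusted p = 0.0471), DECR1 in liver (0.86 ± 0.21, adjusted p = 0.0124), ACSL4 in liver (0.63 ± 0.18, adjusted p = 0.0299), ACADVL in liver (-0.85 ± 0.23, adjusted p = 0.0207). Under the record diet and lane cannot be told apart, and the libraries recorded as liver carry the markers of jejunum. The values that follow are by title.

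The smallest p-values belonged to thiolases and ACADS. ACAA2 in liver had 56.6, 160.5 and 287 CPM on xylose, against 128, 214 and 392 CPM on control (-0.56 ± 0.19, unadjusted p = 0.00758, edgeR adjusted p = 0.72). ACADS in liver had 278, 329.9 and 378 CPM on xylose, against 266, 374 and 1019 CPM on control (-0.44 ± 0.16, adjusted p = 0.72). ACAA1 in liver had 292, 475 and 1037 CPM on xylose, against 385, 582 and 2186 CPM on control (-0.51 ± 0.24, adjusted p = 0.72). The diets overlapped for each gene, and the highest ACADS and ACAA1 values came from control replicate 6, the liver library lowest in hepatocyte markers. ACAA1 in kidney had 250.3, 379.7 and 756 CPM on xylose, against 350.4, 469.6 and 1406 CPM on control (-0.59 ± 0.25, adjusted p = 0.701). Next in kidney were CRAT (-0.27 ± 0.17, adjusted p = 0.782) and ACSL4 (0.23 ± 0.15, adjusted p = 0.784). None of these differences passed the correction.

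In muscle the smallest p-value was that of ACADVL, with 1.45, 5.82 and 10.8 CPM on xylose and 1.53, 3.32 and 7.79 CPM on control (0.51 ± 0.27, adjusted p = 0.701). HADH (-0.21 ± 0.11, adjusted p = 0.727) and ACADL (0.30 ± 0.17, adjusted p = 0.727) followed. In jejunum it was that of ETFA, with 19.7, 38.0 and 65.0 CPM on xylose and 19.8, 51.8 and 153 CPM on control (-0.61 ± 0.31, adjusted p = 0.954), before ACSL5 (-0.21 ± 0.16) and ACSL1 (0.27 ± 0.22). The diets overlapped for ACADVL and for ETFA.

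The genes usually read as signs of fat use and ketone metabolism also failed to pass. PDK4 in muscle had 17.3, 106 and 662 CPM on xylose and 14.1, 122 and 236 CPM on control, and its log2 difference was 0.17 ± 0.47 in muscle, 0.40 ± 0.41 in kidney, 0.12 ± 0.26 in liver and -0.13 ± 0.27 in jejunum. That of CPT1A was 0.04 ± 0.26 in muscle, -0.19 ± 0.24 in kidney, -0.27 ± 0.25 in liver and -0.05 ± 0.28 in jejunum, and that of CPT1B, tested in muscle only, -0.04 ± 0.29. BDH1 differed by 0.09 ± 0.24 in muscle, -0.05 ± 0.17 in kidney, -0.28 ± 0.18 in liver and 0.16 ± 0.18 in jejunum. OXCT1 differed by 0.23 ± 0.16 in muscle, 0.05 ± 0.19 in kidney, -0.06 ± 0.22 in liver and 0.17 ± 0.21 in jejunum. The diet effect was called as unequal between tissues for 0 of 31 members, beside 0.00815% of all 12266 genes. Its smallest member p was that of ACAA1 (0.00158 unadjusted, edgeR adjusted p = 0.584).

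**Figure D4:**
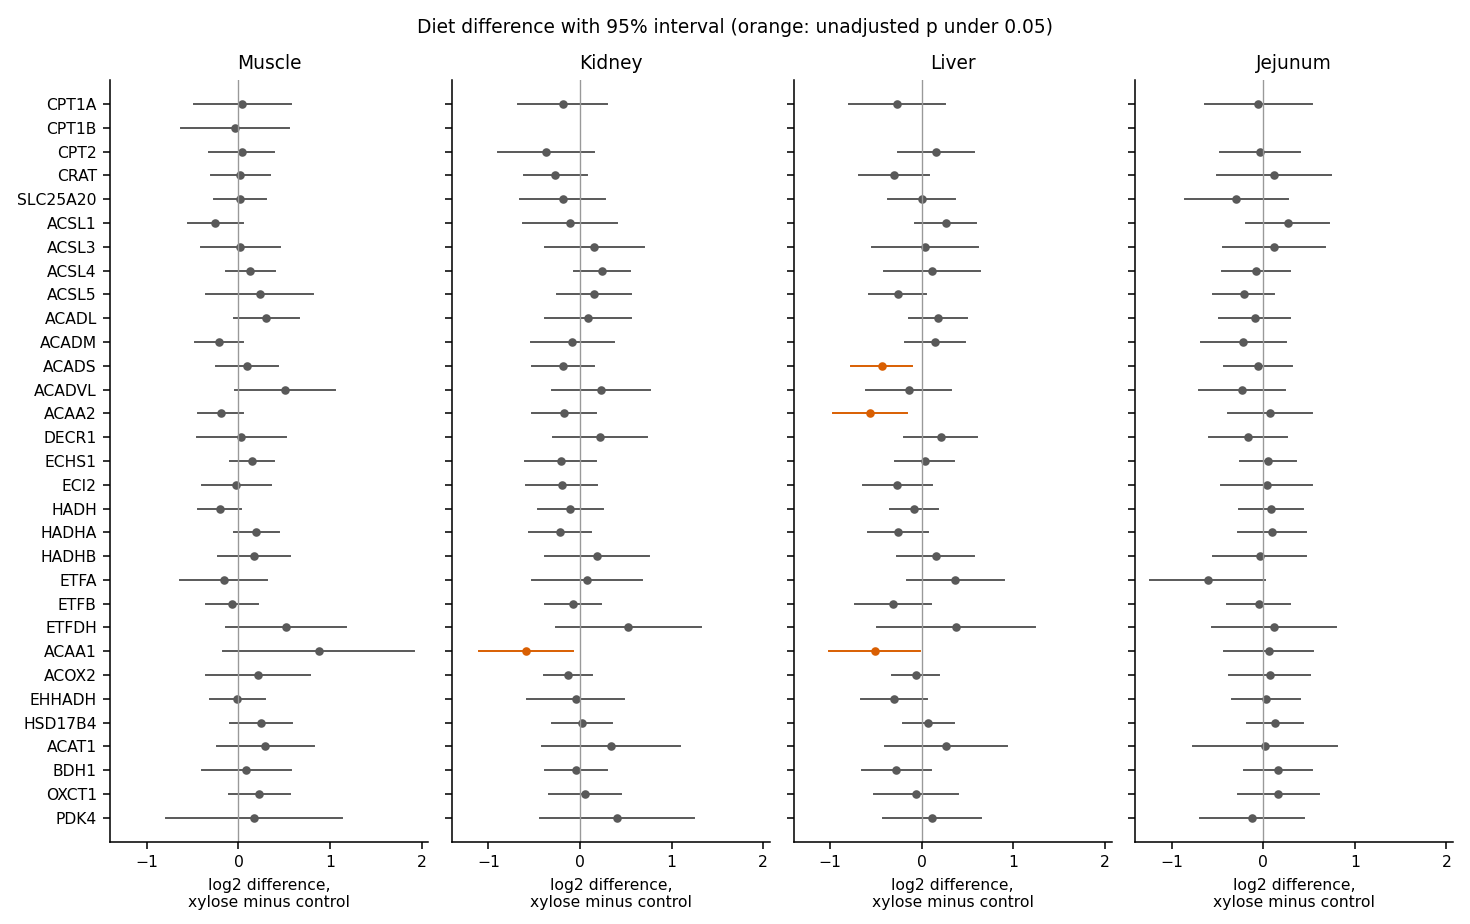
Log2 difference (x axis), xylose minus control, with 95% interval for each tested member in muscle, kidney, liver and jejunum; orange marks an unadjusted p under 0.05. The orange points are ACAA1 in kidney and ACADS, ACAA2 and ACAA1 in liver, and none passed the adjusted threshold.

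Covariation asked which members move together between libraries of 1 tissue, on log2(CPM + 1). PDK4 was set against each other tested member, 117 pairs in all, and 2 passed a permutation adjusted p of 0.05 by r. In muscle PDK4 went with CPT1A (r = 0.76, permutation p = 3e-05, permutation adjusted p = 0.00351, rho = 0.69, permutation adjusted p = 0.0257, n = 24). Their r was 0.68 without the 2 libraries farthest from the PDK4 median, 0.86 in lane 7 and 0.63 in lane 8. In liver PDK4 went with ACSL4 (r = 0.67, permutation p = 0.00047, permutation adjusted p = 0.0275, rho = 0.65, permutation adjusted p = 0.0425, n = 23), with 0.68 in lane 7 and 0.71 in lane 8. Without the 2 farthest libraries that call was lost (r = 0.64, permutation adjusted p = 0.0698). By rank alone PDK4 also went against BDH1 in liver (rho = -0.65, permutation adjusted p = 0.0425), where r was -0.49 (permutation adjusted p = 0.266), -0.68 without the 2 farthest libraries, -0.35 in lane 7 and -0.76 in lane 8. The smallest p-values in kidney were those with SLC25A20 (r = 0.57, permutation adjusted p = 0.156) and CPT2 (r = 0.53, permutation adjusted p = 0.211). In jejunum they were those with BDH1 (r = -0.50, permutation adjusted p = 0.346) and CRAT (r = -0.46, permutation adjusted p = 0.427). When corrected over all pairs of members, as below, PDK4 had 3 positive partners called in kidney. It had 1 each in muscle and liver and 0 in jejunum. The 3 kidney partners of PDK4 with the smallest p-values were SLC25A20, CPT2 and CPT1A.

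Among all pairs of members, 329 of 1770 passed a permutation adjusted p of 0.05 over these 1770 relations, 201 positive and 128 negative. They made up 18.1% of 465 pairs in muscle, and 23.7%, 19.5% and 13.1% of 435 pairs each in kidney, liver and jejunum. These calls were made by r. Called by rank (rho) as well were 34 of them in muscle, 48 in kidney, 25 in liver and 29 in jejunum. Most calls in muscle, kidney and liver thus rested on r alone. Pairs of all tested genes were given no p, but their r serves as a background. Pairs with r nearer to 1 than to 0 made up 12.0% of member pairs in muscle and 8.51% of pairs of all tested genes. These shares were 15.9% and 10.9% in kidney, 13.8% and 6.26% in liver, and 11.7% and 8.98% in jejunum. The median r of member pairs was 0.03 in muscle, 0.10 in kidney, 0.04 in liver and 0.12 in jejunum. Over pairs of all tested genes it was -0.0004, -0.002, -0.001 and -0.001. The called shares and the negative calls have no matching share over all genes, so whether they exceed it was not tested. In all 4 tissues 9 member pairs were called. The 5 positive ones were HADHB with ACAT1, HADHB with ETFDH, ACAT1 with ETFDH, ACADM with ETFA and CRAT with ACAA1, and the 4 negative ones ACAA1 with ACAT1, CRAT with ACAT1, CRAT with DECR1 and HADHB with ACAA1. HADHB and ACAT1, a subunit of the trifunctional protein and a thiolase, had r of 0.83 in muscle, 0.95 in kidney, 0.86 in liver and 0.85 in jejunum. CRAT and ACAT1 had r of -0.60 in muscle, -0.70 in kidney, -0.66 in liver and -0.85 in jejunum. HADHA and HADHB, subunits of 1 protein, had r of -0.55 in muscle, -0.25 in kidney, -0.35 in liver and -0.49 in jejunum, and no tissue was called (lowest permutation adjusted p = 0.0716, in muscle). With the mitochondrial share of counts removed, liver was called at r = -0.60 (permutation adjusted p = 0.0204).

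Much of this covariation ran along the main axis of each tissue. The first principal component of the other genes held 43.3% of variance in muscle, 45.1% in kidney, 36.0% in liver and 35.7% in jejunum. The sign of a component is arbitrary and was set in each tissue so that HADHB had a positive r with it. ACAT1 then had r of 0.90 in muscle, 0.98 in kidney, 0.95 in liver and 0.86 in jejunum with the component. With that component removed, 59 pairs were called, 37 of them among the 329, and HADHB with ACAT1 fell to r of 0.09, 0.13, 0.20 and 0.36 in muscle, kidney, liver and jejunum. The r of the component with the mitochondrial share of counts was -0.52 in muscle, -0.39 in kidney, -0.48 in liver and -0.72 in jejunum. With the share of the tissue's own markers it was 0.68 in muscle, 0.89 in liver and 0.70 in jejunum, but 0.07 in kidney. With the mitochondrial share removed 292 pairs were called, and of those called before it 62 of 84 in muscle, 76 of the kidney pairs, 75 of 85 in liver and 24 of 57 in jejunum were called again. Without the 2 libraries of each tissue lowest in its own markers 152 pairs were called, including 23, 42, 37 and 25 of those called before in muscle, kidney, liver and jejunum. Without muscle xylose replicate 7 muscle had 73, 55 of them among its 84.

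Kidney held a set of activation and transport genes whose correlation passed the threshold with the component or the mitochondrial share removed and without the 2 libraries lowest in tubule markers. CPT1A went with SLC25A20 (r = 0.92, rho = 0.90, permutation adjusted p = 0.000521, n = 24), with 0.93 in lane 7, 0.92 in lane 8, 0.89 without the 2 farthest libraries and 0.92 after the component was removed. SLC25A20 went with ACSL1 (r = 0.90, rho = 0.92, permutation adjusted p = 0.000521), and CPT1A with ACSL1 (r = 0.83, rho = 0.84, permutation adjusted p = 0.000521). CPT2 joined SLC25A20 (r = 0.69, rho = 0.67, permutation adjusted p = 0.00478) and CPT1A (r = 0.59, rho = 0.57, permutation adjusted p = 0.0205). These genes cover activation, entry and re-formation of acyl-CoA. Among oxidation genes ECHS1 went with ACAA2 (r = 0.86, rho = 0.78, permutation adjusted p = 0.000521). HADH went with EHHADH, a peroxisomal member (r = 0.76, rho = 0.79, permutation adjusted p = 0.001). Outside kidney CPT1A and SLC25A20 had r of 0.01 in muscle, 0.38 in liver and 0.67 in jejunum, with permutation adjusted p of 0.974, 0.213 and 0.0154. The difference in r between tissues was not tested.

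**Figure D5:**
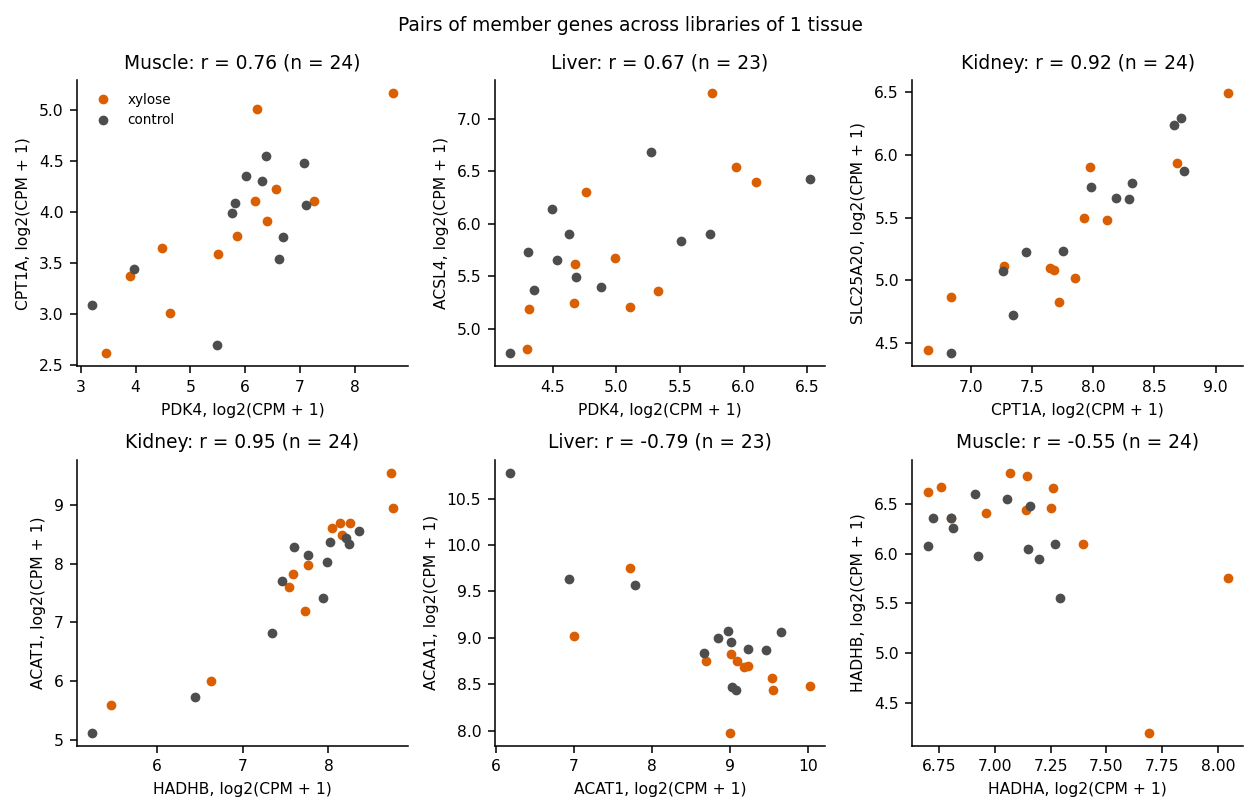
Pairs of members across libraries of 1 tissue, both axes log2(CPM + 1), xylose orange and control grey, with Pearson's r above each panel. PDK4 and CPT1A in muscle (r = 0.76), CPT1A and SLC25A20 in kidney (r = 0.92) and HADHB and ACAT1 in kidney (r = 0.95) go up together, while ACAT1 and ACAA1 in liver run opposite (r = -0.79).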

How the data were processed

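The authors deposited raw read counts per gene, 1 file per library. STAR and featureCounts are named, per the submitters' processing notes, while file names carry the name of another counter. Genome build, annotation, strand setting and the treatment of multi-mapped reads were not given in the sources used here, so paralogous, overlapping and antisense genes are uncertain. QuantSeq samples transcript ends, per the labels' protocols, so counts need no length correction. Retained libraries held 1044588 to 6942566 counts.

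Each file went to the sample whose title its name holds. The diets were compared within each tissue by edgeR 4.0.16 in R 4.3.3 (quasi-likelihood F test, TMM, filterByExpr, lane as a term, Benjamini-Hochberg over all tested genes), tissues in 1 model with diet and lane. Errors are SE. Correlations used two-sided permutation tests with 100000 resamples in Python 3.11.15. On simulated counts 69.5% of 200 genes changed 2-fold by diet in liver were recovered (9194 genes simulated), and 85% for muscle against liver (11511 genes). Of the genes called there, 2.11% for diet and 8.11% for muscle against liver were false. Diet in the other tissues was not simulated.

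Alternatives were DESeq2 size factors, DESeq2 1.42.0, library totals, no filter, no lane term, single lanes, all libraries, the record and a replicate block. Testing all pairs of members, removing the mitochondrial share or first component, and leaving out low-marker libraries were chosen after seeing the data. Levels were given for listed members, diet values for the 3 smallest p per tissue and PDK4, CPT1A, CPT1B, BDH1 and OXCT1, and other lists by their largest differences. The remaining members and pairs without PDK4 were named after their values were seen. Not all ketone body genes are reported here. Members and lists were chosen with earlier results of these data known.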

Additional observations from a re-analysis of the deposited data

Results flagged for a closer look

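Of 68 groups of member values with 4 to 10 libraries, all of them in jejunum, 5 held a highest library whose gap to the next passed Dixon's limit, and chance alone passes it in about 1 in 20 groups. In jejunum control, ECHS1 in replicate 4 was 107 CPM, the nearest other library 76.8 CPM and the group median 69.5 CPM. HSD17B4 in jejunum control replicate 11 was 107 CPM, the nearest other library 75.9 CPM and the group median 69.7 CPM. PPARA in jejunum control replicate 2 was 2.38 CPM, the nearest other library 0.705 CPM and the group median 0.309 CPM, and UCP3 in jejunum control replicate 7 was 4.47 CPM, the nearest other library 1.36 CPM and the group median 0.353 CPM, both at levels of a few counts per library. ACAA1 in jejunum xylose replicate 7 was 396 CPM, the nearest other library 194 CPM and the group median 153 CPM.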

How the results depend on the processing

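By the GEO record, which exchanges liver and jejunum, called members were 17 higher and 9 lower for muscle against liver, 5 higher and 21 lower for muscle against jejunum, 24 higher and 3 lower for kidney against liver, 6 higher and 19 lower for kidney against jejunum and 6 higher and 23 lower for liver against jejunum. Log2 differences that turned there were ACOX2 1.70 (kidney against liver), BDH1 0.32 (kidney against liver), ACAT1 0.78 (kidney against liver), ACSL3 1.68 (kidney against jejunum), ACAA2 -4.51 (liver against jejunum), CPT1A -3.05 (liver against jejunum), ACSL1 -5.41 (liver against jejunum), ACSL5 1.16 (liver against jejunum), ECHS1 -3.51 (liver against jejunum). For diet the record called 1 member in muscle and 3 in liver. Uncalled diet differences that turned by the record were ACADL -0.13 (muscle), OXCT1 -0.083 (muscle), CPT1A 0.50 (kidney), OXCT1 -0.25 (kidney), ACAA2 0.19 (liver), ACADS 0.13 (liver), ACAA1 0.031 (liver), CPT1A 0.73 (liver), BDH1 0.0013 (liver), CPT1A 0.038 (jejunum), OXCT1 -0.32 (jejunum), ACSL5 0.24 (jejunum). In lane 7 alone these turned: CPT1A -0.33 (muscle), PDK4 -0.27 (muscle), CPT1B 0.55 (muscle), BDH1 0.17 (kidney), OXCT1 0.070 (liver), BDH1 -0.051 (jejunum). In lane 8 alone these did: CPT1A 0.093 (kidney), OXCT1 -0.087 (kidney), CPT1A 0.37 (jejunum), PDK4 0.020 (jejunum), OXCT1 -0.049 (jejunum). Without a lane term CPT1B 0.030 (muscle), CPT1A 0.090 (jejunum) turned, and with all libraries kept CPT1A 0.079 (jejunum). None of these diet differences was called.

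Library totals gave 3 higher and 28 lower for muscle against kidney, 5 higher and 20 lower for muscle against jejunum and 15 higher and 10 lower for kidney against liver, and turned PDK4 in muscle against jejunum to -0.23. Lane 7 alone gave 3 higher for kidney against liver, and no filter 5 lower for kidney against jejunum. Summed member CPM was 1908 in muscle, 7624 in kidney and 3446 in jejunum on totals, against 3255, 4791 and 2662 under TMM, and 3685 in muscle with all libraries. The median r of member pairs in liver was 0.27 with all libraries and 0.04 without the low ones. Correlated pairs in muscle, kidney, liver and jejunum numbered 9, 36, 10 and 4 with the first component removed, and 33, 48, 44 and 27 without the libraries lowest in own markers. Jejunum had 32 with the mitochondrial share removed. The causes were not tested.

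No paired analysis was possible for diet because the diets were given to different animals. Between tissues, a replicate block gave 7 higher and 17 lower for muscle against kidney. Libraries with the same number had a median r of 0.139 over 126 pairs, 73 of them over 0.1, and those with other numbers 0.0124 over 1388, 437 of them over 0.1. The labels do not say what a number marks, and not every pair of the same number correlated, so the numbers were not taken as pairs, though the values leave a shared animal or batch possible. Low counts of ACSL6, PPARA and UCP3 limit what can be said of them.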
